A study of Mus musculus with 16 samples.

Results

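The 78 genes described here encode the proteins of the mitochondrial ribosome in mouse, 49 of the large subunit (symbols Mrpl) and 29 of the small subunit (symbols Mrps). They are the protein-coding genes whose symbol is Mrpl or Mrps followed by a number and whose mean level over the 16 liver libraries was at least 1 CPM (counts scaled to the size of the library). All 78 symbols of that form met the level, out of 25006 genes in the count table, and all 78 were among the 13180 genes tested. One of them, Mrps36, keeps an older name: its product is now known as a subunit of the 2-oxoglutarate dehydrogenase complex and not as part of the mammalian mitochondrial ribosome.

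Mitochondria keep their own ribosome, which descends from that of bacteria and translates the few messenger RNAs copied from mitochondrial DNA, all of them for subunits of the respiratory chain and the ATP synthase. Its RNAs come from mitochondrial DNA, but every one of its proteins is encoded in the nucleus, made in the cytosol and imported, and many of these proteins have no counterpart in bacteria. The liver is rich in mitochondria. Several antibiotics that act on the bacterial ribosome are known to act on the mitochondrial one as well; which antibiotics were used here was not stated in the labels.

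The RNA came from livers of C57BL/6 mice, an inbred strain, whose ages are not given in the labels. Mice that drank water with antibiotics, or control water, were gavaged once with a slurry of fast food or of chow, and livers were collected after 4 h. The 4 groups of 4 libraries were fast food with antibiotic water, chow with antibiotic water, fast food with control water and chow with control water. The labels number the replicates but do not say that each is a separate mouse, so the p-values measure the spread between these libraries, which may in part be technical.

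Library totals ran between 8954378 and 18954655 counts. A set of reads of ribosomal RNA type, counted to Lars2, Mir6236, Gm20594 and Mir6240, took 0.12 to 0.587% of the counts in 9 libraries and 2.45 to 8.42% in the other 7. Those 7 were 3 of the fast food antibiotic libraries, 2 of the chow antibiotic libraries, none of the fast food control libraries and 2 of the chow control libraries. The share therefore moved with the water in the fast food mice and was balanced in the chow mice. The 5 hepatocyte markers in the table were detected in every group, and the 13 protein-coding genes of mitochondrial DNA had a count of 0 in every library. The messenger RNAs that the mitochondrial ribosome translates can thus not be read from these files. The acute phase transcripts Saa1, Saa2, Saa3, Lcn2 and Orm2 together stood at 3587 CPM in fast food antibiotic replicate 2, 3244 CPM in chow antibiotic replicate 4 and 718 CPM in chow control replicate 2, and at 25.7 to 239 CPM in the other 13 libraries. Without those 3 libraries the comparisons below called 0 members for the meal with control water, 2 for the meal with antibiotics, 15 for the water with chow, 1 for the water with fast food and 2 for the interaction. How many of all genes that fit called is not given here, so these counts have no share to be read against.

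Every member was a gene of middle or low level. The mean per member lay between 1.40 and 68.8 CPM, with a median of 18.9 CPM, against a median of 12.9 CPM over all genes tested, and 69 members averaged at least 10 CPM. Mrpl15 had the highest mean CPM, and Mrps36 had the lowest. Per kilobase of exon, Mrpl34 led with 35.2 CPM per kb, followed by Mrpl12 with 26.7 and Mrpl53 with 23.7. The length counts all annotated exons of a gene, whether used in liver or not, so this comparison between genes is approximate. Mrpl53 shares 695 bases of its 790 bases of exon with Gm42688 on the same strand, so its level and rank are uncertain. Mrpl12 is a stalk protein of the large subunit that is also known to bind the mitochondrial RNA polymerase. The lowest levels on that scale were 0.355 CPM per kb for Mrpl23, 1.10 for Mrps36 and 1.14 for Mrps25. Mrps36 and Mrpl23, at 1.40 and 1.73 CPM, also lay nearest to the threshold of 1 CPM, and no gene of the family fell below it.

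**Figure D1:**
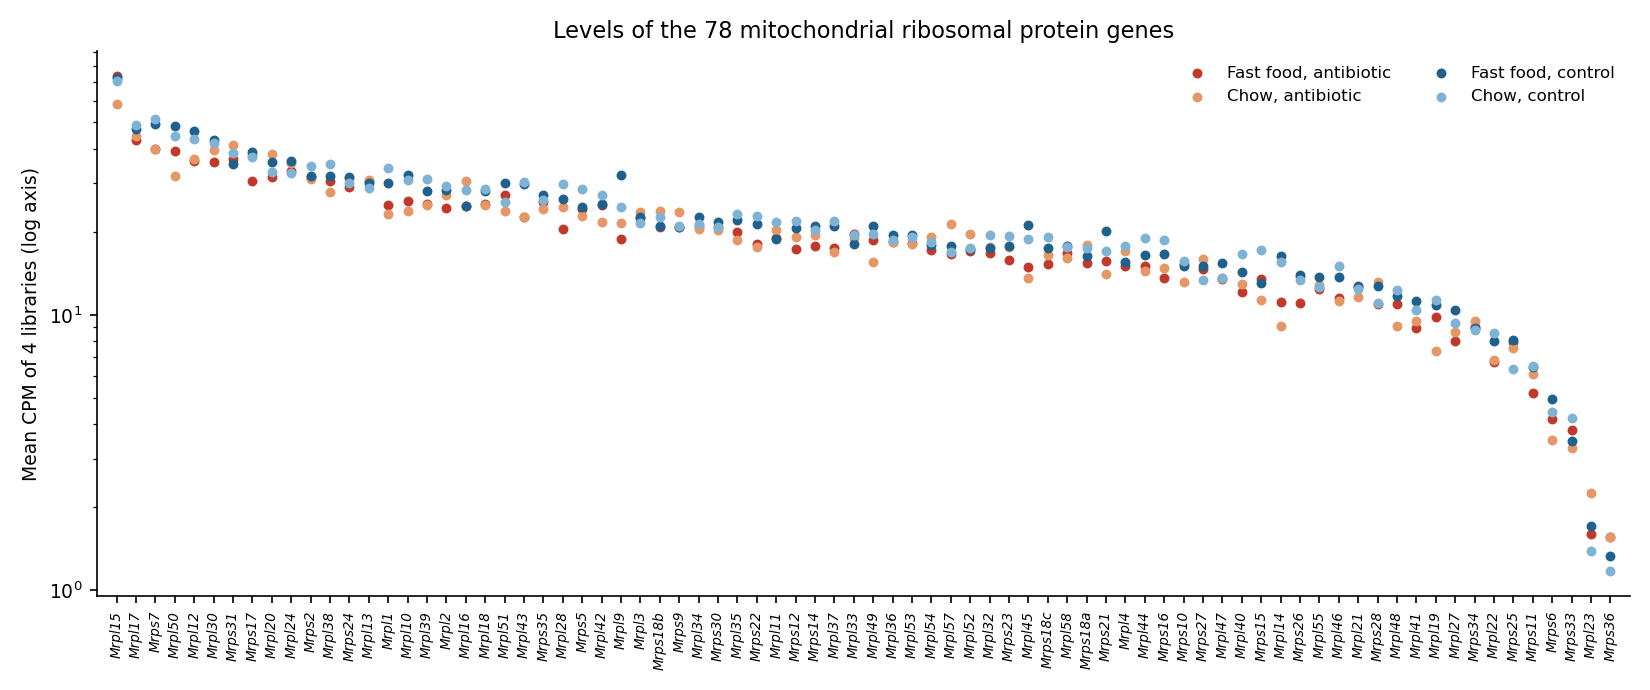
Mean level of each member (CPM, log axis) in the 4 groups, with members ordered from the highest to the lowest mean. The group means of a gene lie close together compared with the range between genes, which runs from 68.8 CPM for Mrpl15 to 1.40 CPM for Mrps36.

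The members were steady within groups. The median member varied by 0.179 on the log2 scale between libraries of 1 group (pooled SD, 10th to 90th percentile 0.133 to 0.272). Over 4029 genes of like level that SD had a median of 0.214, over the cytosolic ribosomal protein genes 0.202 and over nuclear respiratory chain genes 0.182. The tightest members were Mrpl33 at 0.098, Mrps7 at 0.103 and Mrps9 at 0.106. The loosest were Mrps34 at 0.447, Mrps36 at 0.372 and Mrpl49 at 0.355. Mrps34, a small-subunit protein whose human counterpart is mutated in a form of Leigh syndrome, shares 1309 bases of exon sequence with Mapk8ip3 on the opposite strand. It had 13.1, 7.54, 5.93 and 9.62 CPM in the fast food antibiotic livers, 5.67, 14.7, 6.94 and 10.8 in the chow antibiotic livers, 8.88, 12.0, 8.16 and 6.70 in the fast food control livers, and 8.27, 11.2, 8.72 and 7.11 in the chow control livers. All 4 groups of Mrps34 overlap.

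The first question of the design was whether a fast food meal changed these genes relative to chow. With control water it did not move any member past the threshold of an adjusted p of 0.05 (edgeR quasi-likelihood test with Benjamini-Hochberg adjustment over all genes tested). Over all genes tested the shares called were 0.243% higher and 0.334% lower. At an unadjusted p under 0.05, 1 member was higher and 1 lower with edgeR, and 3 members passed that level with DESeq2, which also called 0 members after adjustment. Of the 13180 genes tested, 706 were higher and 809 lower at that level with edgeR. The median log2 fold change, fast food over chow, was -0.01 for the members and -0.02 for all genes tested, with 38 members positive and 40 negative. The largest value was that of Mrps15, -0.39 ± 0.14 (SE, adjusted p = 0.248), and no member reached 0.5 in either direction. The 95% interval of the median member, not adjusted for the number of genes, was 0.261 wide on each side. A call needed an adjusted p under 0.05, so changes larger than 0.261 could go uncalled as well.

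With antibiotic water, where the meal moved many more genes, the members again gave 0 calls with edgeR. Of all genes tested, 7.78% were higher and 5.87% lower after fast food than after chow. Among the members 3 were higher and 5 lower at an unadjusted p under 0.05. Of the 13180 genes tested, 2181 were higher and 1824 lower at that level, a larger share than of the members. Fold changes were positive in 35 members and negative in 43, with a median of -0.02 against 0.03 for all genes tested. DESeq2 called 2 members lower, Mrps17 (adjusted p = 0.0308) and Mrpl16 (adjusted p = 0.0464), for which edgeR gave adjusted p-values of 0.0635 and 0.0693. Those 2 are 2.56% of the members, below the 8.86% of all genes tested that DESeq2 called lower. Mrps17, a small-subunit protein with a bacterial counterpart, averaged 30.6 ± 2.23 CPM in the fast food antibiotic livers and 38.0 ± 4.61 CPM in the chow antibiotic livers (SD, n = 4 each). The largest log2 fold change was that of Mrpl23, -0.44 ± 0.25 (SE, adjusted p = 0.280). Mrpl23 is a large-subunit protein with a bacterial counterpart; its 14 counts in the poorest library make it one of the least precise members.

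The second question was whether antibiotic water changed the members, and with a chow meal it lowered 14 of the 78. No member was called higher. The 14 make up 17.9% of the members, while 13.2% of all genes tested were lower and 10.6% higher in the same comparison. The median log2 fold change, antibiotic over control water, was -0.13 for the members and -0.01 for all genes tested, and 55 members were negative. At an unadjusted p under 0.05, 24 members were lower and 2 higher. Of the 13180 genes tested, 2586 were lower and 2254 higher at that level. DESeq2 also called 14 members lower and none higher, while it called 14.1% of all genes tested lower and 13.1% higher. Changes were small: 5 members passed 0.5 on the log2 scale in either direction, and none passed 1. Those 5 were the lowered Mrpl1, Mrpl14, Mrps15 and Mrpl19, and Mrpl23, which was higher by 0.66 but not called (unadjusted p = 0.0187, edgeR).

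By subunit, 10 of the 49 large-subunit genes, 20.4%, and 4 of the 29 small-subunit genes, 13.8%, fell. Of all genes tested 13.2% fell, so the small-subunit share was near that of all genes. The 6 with the lowest p-values were Mrpl1, Mrpl14, Mrps15, Mrpl50, Mrpl19 and Mrps7. Most of these encode proteins with bacterial counterparts, and Mrpl50 is one of those that only mitochondrial ribosomes have.

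Mrpl1 (ENSMUSG00000029486, chr5:96209493-96266727, plus strand, GRCm38) encodes the protein of the stalk beside the exit site for transfer RNA. Its level was 25.6, 21.4, 25.2 and 21.0 CPM in the chow antibiotic livers, against 31.2, 31.5, 39.4 and 34.8 CPM in the chow control livers. Every antibiotic library lay below every control library, and the log2 fold change was -0.55 ± 0.11 (SE, adjusted p = 0.00239, edgeR). With fast food the levels were 21.3, 26.1, 25.2 and 27.9 CPM in antibiotic livers, against 32.1, 31.3, 28.3 and 28.7 CPM in control livers. Those groups did not overlap either, but the log2 fold change of -0.26 ± 0.11 did not pass (SE, adjusted p = 0.155, edgeR).

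Mrpl14 (ENSMUSG00000023939, chr17:45686322-45698495, plus strand) encodes a protein on the face of the large subunit that meets the small one, where the assembly factor Malsu1 is known to bind. It showed the largest fall among the members, with 9.61, 8.76, 8.14 and 9.80 CPM in the chow antibiotic livers, against 15.6, 12.3, 19.2 and 15.2 CPM in the chow control livers. The groups were apart, and the log2 fold change was -0.78 ± 0.18 (SE, adjusted p = 0.00466, edgeR). With fast food it had 13.0, 7.68, 13.5 and 10.4 CPM in antibiotic livers, against 19.5, 15.6, 16.9 and 13.7 CPM in control livers, again with no overlap. There the log2 fold change was -0.56 ± 0.17 and did not pass with edgeR (SE, adjusted p = 0.0632). Its exons share 106 bases with Tmem63b on the other strand, and Tmem63b itself fell in the chow comparison by 0.63 on the log2 scale (adjusted p = 0.0116, edgeR). No source used here states whether the counting used strand, so reads of the shared bases cannot be told apart.

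Mrps15 (ENSMUSG00000028861, chr4:126046925-126055532, plus strand) encodes a protein of the small subunit's platform. Its levels were 9.78, 10.8, 11.7 and 12.9 CPM in the chow antibiotic livers, against 20.3, 16.2, 16.8 and 15.5 CPM in the chow control livers. All antibiotic libraries were lower, with a log2 fold change of -0.61 ± 0.14 (SE, adjusted p = 0.00499, edgeR). The fast food livers had 15.2, 12.7, 12.9 and 13.0 CPM with antibiotics and 12.1, 16.1, 13.3 and 10.8 CPM with control water. Here the groups overlapped, and the log2 fold change was 0.04 ± 0.14 (SE). The difference between both water effects, the interaction, was 0.65 ± 0.20 on the log2 scale (SE) and did not pass with edgeR (adjusted p = 0.0690), while DESeq2 gave an adjusted p of 0.0468.

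Mrpl50 (ENSMUSG00000044018, chr4:49512596-49521093, minus strand) was at 32.6, 27.8, 40.7 and 26.3 CPM in the chow antibiotic livers, against 43.5, 42.6, 48.5 and 43.8 CPM in the chow control livers. The highest antibiotic library stayed below the lowest control library, and the log2 fold change was -0.48 ± 0.12 (SE, adjusted p = 0.00675, edgeR). Mrpl50 also had non-overlapping groups with fast food, at 37.7, 38.4, 41.0 and 40.5 CPM in antibiotic livers, against 50.8, 48.7, 48.8 and 45.7 CPM in control livers. That change, -0.30 ± 0.11, did not pass (SE, adjusted p = 0.115, edgeR).

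Mrpl19 (ENSMUSG00000030045, chr6:81957851-81965958, minus strand) had 8.05, 8.06, 7.39 and 6.11 CPM in the chow antibiotic livers, against 9.12, 10.6, 12.7 and 13.0 CPM in the chow control livers. Again the groups were apart, and the log2 fold change was -0.61 ± 0.16 (SE, adjusted p = 0.0105, edgeR). Mrpl19 shares 1962 bases of exon sequence with Gcfc2 on the other strand, a gene whose log2 fold change here was 0.09 ± 0.22 (SE, adjusted p = 0.791). With fast food, Mrpl19 averaged 9.85 ± 1.81 CPM in antibiotic livers and 10.9 ± 1.08 CPM in control livers (SD, n = 4 each).

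Mrps7 (ENSMUSG00000046756, chr11:115603925-115608036, plus strand) encodes a protein of the small subunit's head that is known to start its assembly in bacteria. It was at 37.2, 46.5, 38.5 and 38.5 CPM in the chow antibiotic livers, against 49.3, 49.2, 54.7 and 51.9 CPM in the chow control livers. The log2 fold change was -0.35 ± 0.09 (SE, adjusted p = 0.0118, edgeR), and it no longer passed when chow antibiotic replicate 1 was left out (adjusted p = 0.0569). The fast food livers had 43.5, 36.0, 40.0 and 41.0 CPM with antibiotics, against 50.1, 51.3, 49.0 and 46.8 CPM with control water. There the groups did not overlap, and the log2 fold change was -0.30 ± 0.09 (SE, adjusted p = 0.0631, edgeR).

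**Figure D2:**
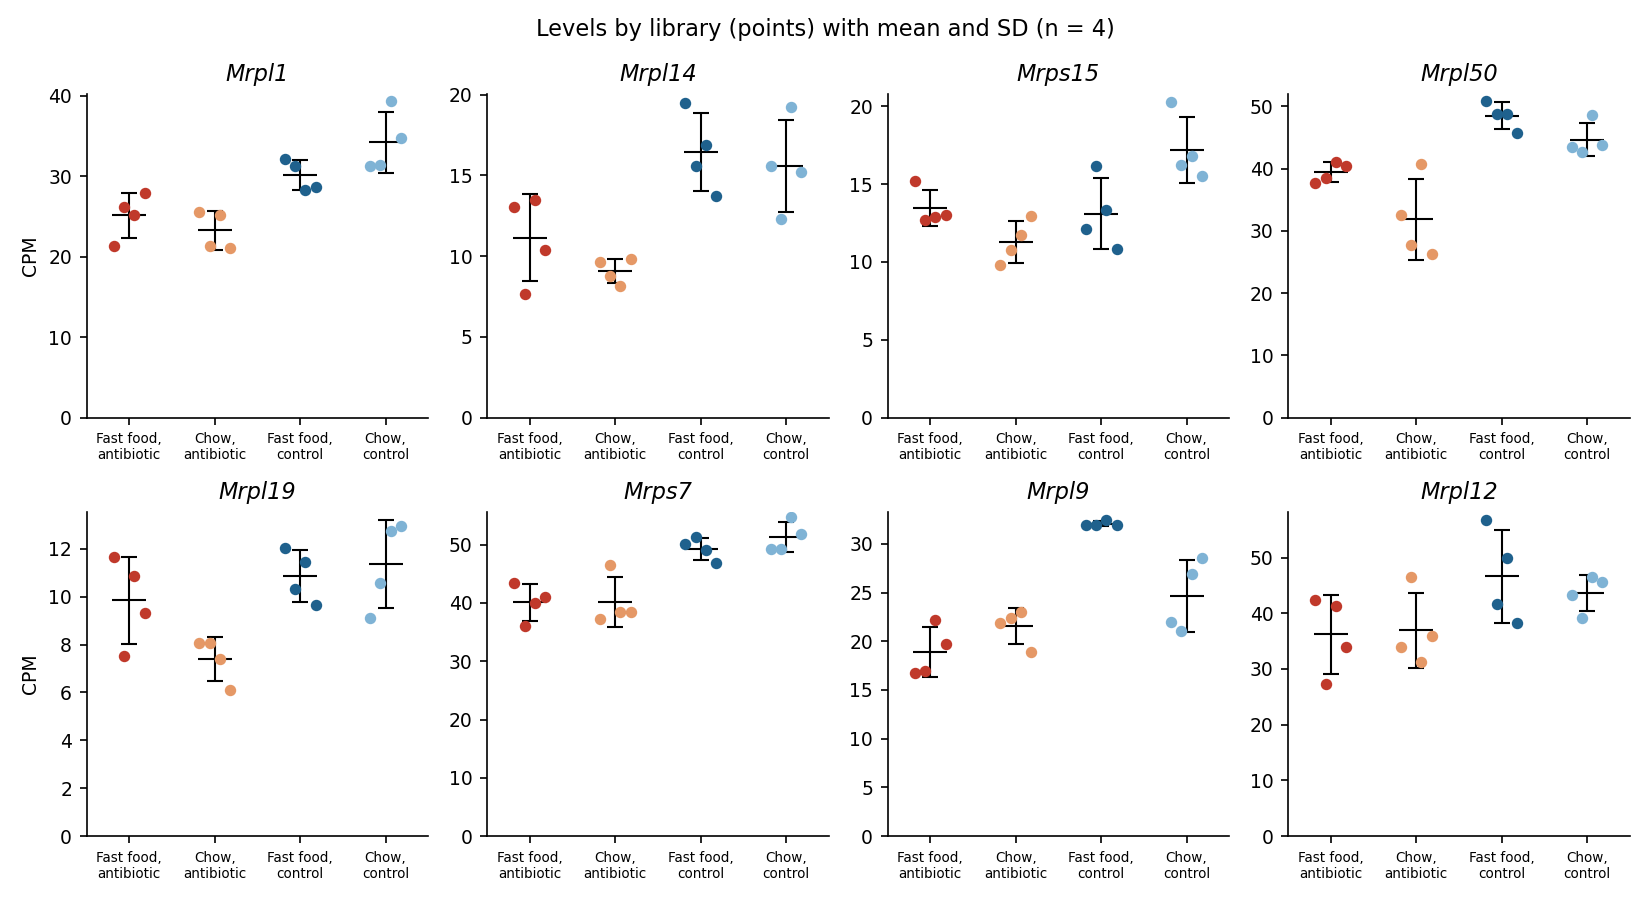
Level (CPM) of 8 members in each library, as points, with the mean and SD of each group (n = 4), for fast food with antibiotics, chow with antibiotics, fast food with control water and chow with control water from left to right. In Mrpl1, Mrpl14, Mrps15, Mrpl50, Mrpl19 and Mrps7 the chow antibiotic points all lie below the chow control points; in Mrpl9 the fast food antibiotic points, 16.7 to 22.2 CPM, lie below the fast food control points, 31.9 to 32.5 CPM; Mrpl12 overlaps in both meals.

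The other 8 were Mrpl10, Mrpl45, Mrpl43, Mrpl46, Mrpl37, Mrps5, Mrps22 and Mrpl48, named here after their values were seen. Their log2 fold changes lay between -0.48 for Mrpl45 and -0.33 for Mrps5, and their adjusted p-values between 0.0228 for Mrpl10 and 0.0430 for Mrpl48. Mrpl10 anchors the stalk on which Mrpl12 sits, Mrpl45 lies at the tunnel exit on the side facing the inner membrane, and Mrps22 is a mitochondrion-specific protein whose human counterpart is mutated in fatal infantile disease. In 11 of all 14 the groups did not overlap, and Mrpl43, Mrpl37 and Mrpl48 were the exceptions. The 14 were picked for low p over these same libraries, so this is no separate evidence. Every antibiotic library lay below every control library in 17.9% of the 78 members and in 13.6% of all genes tested. Of the 14, 7 share exon bases with a gene on the opposite strand. Mrpl46 overlaps Mrps11, its neighbour on the other strand, by 173 bases, and Mrps11 had a log2 fold change of -0.11 ± 0.17 (SE, adjusted p = 0.688). Mrpl43 shares 507 bases with Twnk, which had -0.53 ± 0.22 (SE, adjusted p = 0.0938, edgeR). Mrpl48 shares 708 bases with Rab6a, which had 0.18 ± 0.15 (SE, adjusted p = 0.420, edgeR). Mrps7 shares 127 bases with Gga3 and 119 with Mif4gd, neither of them called here (adjusted p = 0.550 and 0.941, edgeR).

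These calls rest on few libraries. Mrpl1, Mrpl14, Mrps15, Mrpl50 and Mrpl19 passed in all 16 fits that left out 1 library, and each of the other 9 was lost in at least 1 fit; Mrpl48 passed in only 4. The number of called members was 5 without chow antibiotic replicate 1, 8 without chow antibiotic replicate 3, 6 without chow control replicate 3 and 6 without chow control replicate 4. In the 2 chow antibiotic and 2 chow control libraries with a low share of ribosomal RNA reads, 23 members were called. The median log2 fold change of the members there was -0.328. How many of all genes that fit called is not given here, so the 23 has no share to be read against. In the 4 chow libraries with a high share 0 members were called and their median was 0.0464. That fit called 1 gene higher and 2 lower of all those tested. The 14 members were negative in both fits, with values between -0.97 and -0.29 at low share and between -0.65 and -0.11 at high share. Of them 12 were called at low share and 0 at high share. They were picked for being lower over these same libraries, so the shared sign is no separate evidence.

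Upstream sequence was available for 69 of the members in a RefSeq table of promoters on GRCm38.p6, as 75 windows of 300 bases, each from 250 bases before to 50 bases after an annotated start. Motifs of factors known to act on nuclear genes for mitochondrial proteins were searched as exact letters on both strands: CGCATGCGC for NRF1, CCGGAAG for ETS factors such as GABP, and AAGATGGCG for YY1, where the last letters of the ETS motif can overlap the first of the YY1 motif. The NRF1 letters were in 9.33% of the members' windows, against 3.38% of the windows of all genes tested and 1.75% of all windows in the table. The ETS letters were in 34.7%, against 16.5% and 8.86%, and the YY1 letters in 10.7%, against 2.83% and 1.40%. At least 1 of them was in 48.0% of the members' windows, 21.2% of those of all genes tested and 11.4% of all windows. These are matches of letters, not binding sites.

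The windows of the 3 members with the lowest p-values over all comparisons are shown because they carry the clearest differences, with any of the motif letters in capitals. Mrpl9, the member that fell with fast food, holds NRF1 letters on both strands just before its start, at chr3:94443086-94443385 on the plus strand. Those of Mrpl1, at chr5:96209865-96210164, and Mrpl14, at chr17:45686099-45686398, both on the plus strand, hold none of the motifs searched. The Mrpl1 window lies wholly inside the span given above for that gene, so the bases before the start of that span were not searched.
Mrpl9: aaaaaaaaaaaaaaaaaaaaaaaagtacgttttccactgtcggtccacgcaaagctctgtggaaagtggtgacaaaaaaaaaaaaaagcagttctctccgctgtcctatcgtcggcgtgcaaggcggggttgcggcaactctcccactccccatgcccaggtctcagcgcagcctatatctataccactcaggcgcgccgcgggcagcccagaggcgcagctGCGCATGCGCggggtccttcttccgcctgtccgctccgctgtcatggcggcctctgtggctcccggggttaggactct
Mrpl1: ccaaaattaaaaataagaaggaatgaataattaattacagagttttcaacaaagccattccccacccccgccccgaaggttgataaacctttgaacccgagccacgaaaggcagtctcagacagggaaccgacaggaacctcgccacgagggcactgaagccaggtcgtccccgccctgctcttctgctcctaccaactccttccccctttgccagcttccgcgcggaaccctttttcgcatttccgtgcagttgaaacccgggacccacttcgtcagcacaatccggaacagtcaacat
Mrpl14: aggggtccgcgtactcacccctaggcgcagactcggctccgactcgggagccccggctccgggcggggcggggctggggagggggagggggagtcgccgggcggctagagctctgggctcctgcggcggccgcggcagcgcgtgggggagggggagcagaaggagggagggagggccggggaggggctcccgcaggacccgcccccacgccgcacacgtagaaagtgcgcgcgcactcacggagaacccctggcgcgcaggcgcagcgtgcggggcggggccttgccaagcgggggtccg

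Of the 14 members lowered by antibiotics with chow, 13 were in the table, and 5 of these held 1 kind of motif. The stretch around 1 match of each is shown, 5′ to 3′ on the strand of the gene, since they are the members that fell and that carry the letters, which are in capitals. They lie on GRCm38.p6 at chr11:97041427-97041475 for Mrpl10 (NRF1 letters), chr4:107066817-107066860 for Mrpl37 (YY1 letters), chr19:45006472-45006518 for Mrpl43, chr7:100583138-100583184 for Mrpl48 and chr9:98601664-98601710 for Mrps22 (ETS letters in these 3). Mrpl43 holds the ETS letters once more, nearer to its start. Mrpl48 has several annotated starts, and only the window at chr7:100583081-100583380 holds the letters. Its windows at chr7:100607573-100607872 and chr7:100608252-100608551, further upstream on the minus strand, hold none of the motifs.
Mrpl10: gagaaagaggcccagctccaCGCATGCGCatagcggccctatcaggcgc
Mrpl37: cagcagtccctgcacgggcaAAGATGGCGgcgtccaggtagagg
Mrpl43: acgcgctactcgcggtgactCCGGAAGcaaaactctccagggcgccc
Mrpl48: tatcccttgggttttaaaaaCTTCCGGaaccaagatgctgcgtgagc
Mrps22: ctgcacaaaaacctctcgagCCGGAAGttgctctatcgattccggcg
By window, 31.2% of the 16 windows of these 13 genes and 52.5% of the 59 windows of the other members held a match.

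With a fast food meal, antibiotic water lowered 1 member, Mrpl9, and raised none. Of all genes tested, 2.22% were lower and 3.77% higher. Mrpl9 (ENSMUSG00000028140, chr3:94443318-94451130, plus strand) encodes a large-subunit protein with a bacterial counterpart. Its level was 16.7, 16.9, 22.2 and 19.7 CPM in the fast food antibiotic livers, against 31.9, 32.0, 32.5 and 31.9 CPM in the fast food control livers. The groups were far apart, and the fast food control libraries were closer to each other than in any other group of this gene. The log2 fold change was -0.76 ± 0.12 (SE, adjusted p = 0.00733, edgeR), and it passed in all 16 fits that left out 1 library. With chow, Mrpl9 had 21.9, 22.4, 23.0 and 18.9 CPM in antibiotic livers and 22.0, 21.0, 26.9 and 28.6 CPM in control livers. Those groups overlapped, at a log2 fold change of -0.19 ± 0.12 (SE, adjusted p = 0.260, edgeR). The interaction of -0.57 ± 0.17 did not pass with edgeR (SE, adjusted p = 0.0674), and DESeq2 gave 0.0193.

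The rest of the members were mostly negative but not called. Their fold changes were negative in 67 of 78 cases counting Mrpl9, with a median of -0.14 against 0.02 for all genes tested, and 18 were lower and none higher at an unadjusted p under 0.05. Over all genes tested that level was passed by 1519 lower and 1914 higher. DESeq2 called 6 members lower, 7.69%, while it called 5.21% of all genes tested lower. In 14 members, 17.9%, every antibiotic library lay below every control library, which held for 8.38% of all genes tested. With chow that also held for 14 members, against 13.6% of all genes tested.

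In this comparison the share of ribosomal RNA reads differed between the groups, at 2.71 to 8.23% in 3 of the 4 antibiotic libraries and 0.587% in the other, against 0.162 to 0.338% in the control libraries. With that share in the model, no gene of those tested was called, and Mrpl9 stood at -0.55 (adjusted p = 0.198); with the split at 1% it stood at -0.57 (adjusted p = 0.110). With 1 antibiotic library of low share, the share and the water cannot be told apart in the fast food mice.

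The 2 water effects, one per meal, share no library. Across the 78 members their log2 fold changes had a Pearson r of 0.41 and a Spearman rho of 0.40, and across all genes tested Pearson's r was 0.448. These are descriptions across genes, which are not independent. Both effects were negative in 49 members, 62.8%, against 30.8% of all genes tested, and both were positive in 5. No member was called in both. None was called in the interaction by edgeR, in which 2.36% of all genes tested were called higher and 1.58% lower. At an unadjusted p under 0.05, 2 members were higher and 4 lower in the interaction, against 1614 higher and 1171 lower of the 13180 genes tested. DESeq2 called Mrps15 higher and Mrpl9 lower in it, and called 4.36% of all genes tested higher and 4.14% lower. The largest interaction was that of Mrpl23, -0.75 ± 0.36 (SE, adjusted p = 0.239, edgeR), whose chow antibiotic libraries ran from 1.55 to 2.98 CPM and whose chow control libraries ran from 1.24 to 1.57 CPM.

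**Figure D3:**
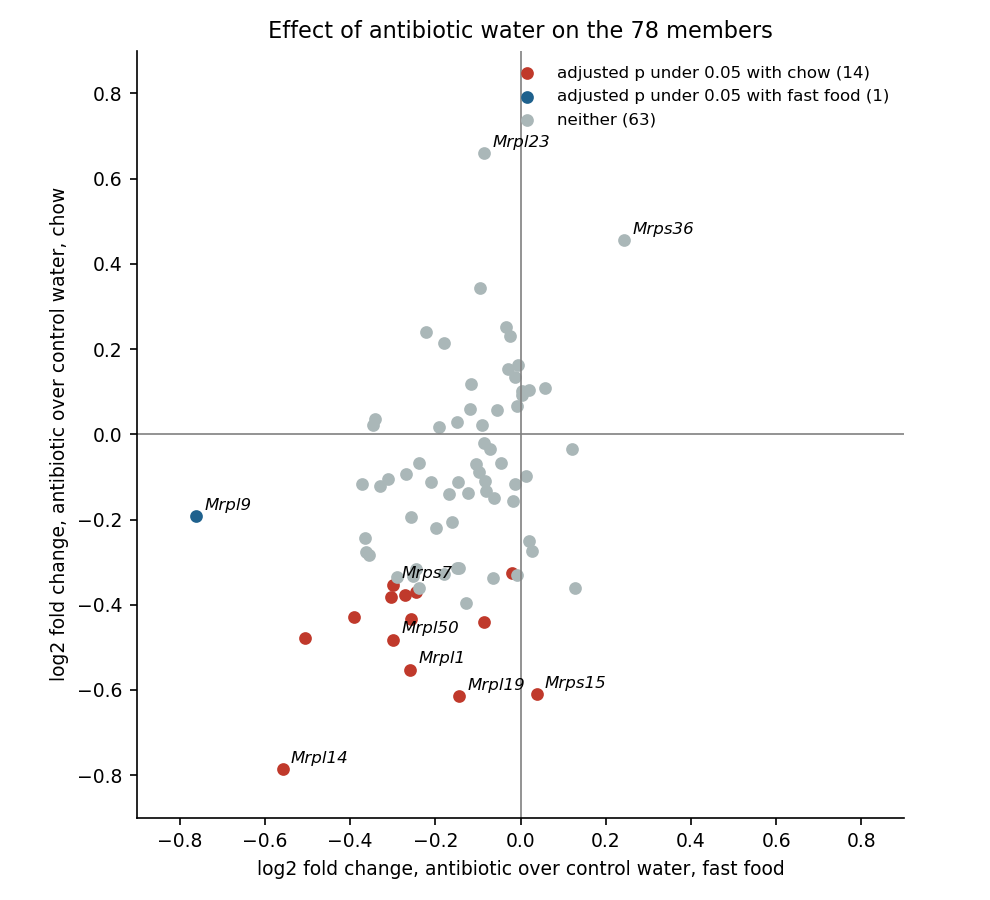
log2 fold change of antibiotic over control water for each of the 78 members, with fast food on the x axis and with chow on the y axis. The points gather in the lower left quadrant, which holds 49 members; the 14 called with chow are red, and Mrpl9, the one called with fast food, is blue.

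Seen by library, the members moved as a body by little more than the spread between replicates. A library's score is the mean over the members of its log2 CPM minus the mean of all 16 libraries. The score was -0.083 ± 0.096 with fast food and antibiotics, -0.067 ± 0.092 with chow and antibiotics, 0.074 ± 0.113 with fast food and control water and 0.077 ± 0.098 with chow and control water (SD, n = 4 each). The summed level of all members was 1551 ± 104 CPM with fast food and antibiotics and 1571 ± 107 CPM with chow and antibiotics, against 1731 ± 138 CPM with fast food and control water and 1742 ± 117 CPM with chow and control water. Scores of antibiotic libraries ran from -0.224 to 0.067 and those of control libraries from -0.086 to 0.195, so they overlapped. The highest antibiotic library was chow replicate 2 and the lowest control library fast food replicate 4. At a low share of ribosomal RNA reads the chow antibiotic libraries had scores of -0.145 and -0.096, against 0.118 and 0.195 in the chow control libraries. At a high share they were -0.093 and 0.067 in the chow antibiotic libraries, against -0.021 and 0.014 in the chow control libraries.

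**Figure D4:**
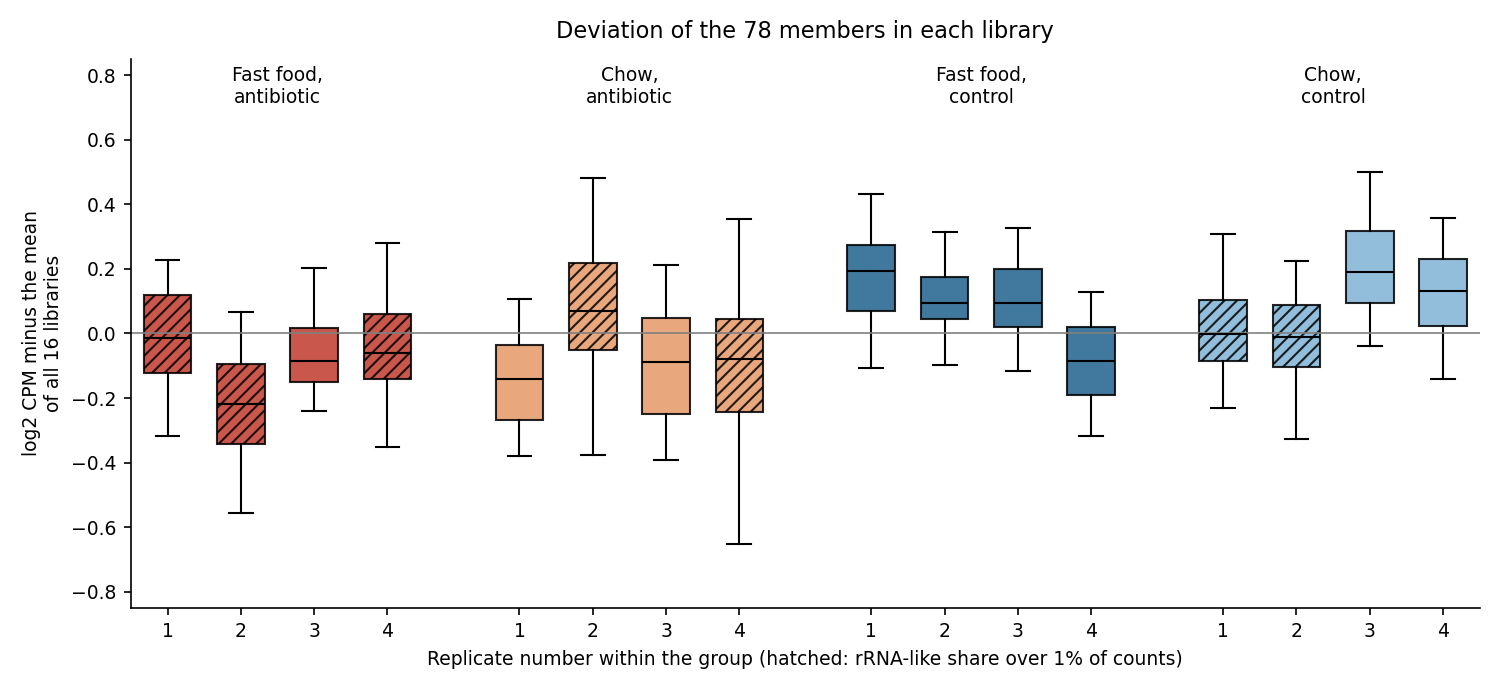
Deviation of the 78 members from their mean over all 16 libraries (log2 CPM) in each library; boxes show the quartiles and median, whiskers the 5th to 95th percentile, and hatching marks libraries with over 1% of counts of ribosomal RNA type. The medians of the antibiotic libraries lie below 0, apart from chow antibiotic replicate 2; those of the control libraries lie above it, apart from fast food control replicate 4 at -0.087 and chow control replicates 1 and 2 at -0.0027 and -0.011.

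Levels of cell type markers moved with the water too. Unlike the members' levels, these sums were scaled to the library total alone, without the TMM factors. Those factors were 0.781 to 0.950 in the chow antibiotic libraries and 1.02 to 1.10 in the chow control libraries. TMM scaling would raise the chow antibiotic sums and lower the chow control sums. Overlap is therefore stated for the sums as given, and groups that lie close may overlap after TMM scaling. The summed level of 8 markers of Kupffer cells and macrophages was 149 to 222 CPM with fast food and antibiotics and 135 to 180 CPM with chow and antibiotics, against 279 to 410 CPM with fast food and control water and 236 to 724 CPM with chow and control water. The 5 hepatocyte markers summed to 136570 to 177170 CPM in the chow antibiotic livers, against 93063 to 123880 CPM in the chow control livers; with fast food the sums were 88863 to 127520 CPM with antibiotics and 99630 to 109990 CPM with control water. Those of 5 cholangiocyte markers were lower with antibiotics in both meals and did not overlap, at 18.4 to 24.5 CPM with fast food and antibiotics and 7.92 to 25.7 CPM with chow and antibiotics, against 28.9 to 43.8 CPM with fast food and control water and 28.9 to 47.6 CPM with chow and control water. Nor did those of 5 markers of T and B lymphocytes overlap, at 0.715 to 1.13 CPM with fast food and antibiotics and 0.369 to 1.11 CPM with chow and antibiotics, against 1.31 to 2.54 CPM with fast food and control water and 1.49 to 2.40 CPM with chow and control water. For 6 markers of sinusoidal endothelial cells the sums were apart with chow, at 268 to 352 CPM in antibiotic livers, against 372 to 435 CPM in control livers, and overlapped with fast food, at 345 to 432 CPM in antibiotic livers, against 346 to 400 CPM in control livers. Sums of stellate and erythroid markers overlapped in both meals. For 5 neutrophil markers the sums were 2.80 to 57.5 CPM in the chow antibiotic livers, against 1.60 to 9.52 CPM in the chow control livers, and Mpo was at 0 in the chow control and the fast food antibiotic livers. The part of these differences in the members' levels was not tested. In bulk tissue, fewer cells of a type and less RNA per cell cannot be told apart.

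Some members have roles beyond a plain structural one, and none of those set out for description was called in any of the 5 comparisons. Mrpl12 had 33.9, 46.5, 31.3 and 35.9 CPM in the chow antibiotic livers and 43.3, 39.2, 46.5 and 45.6 CPM in the chow control livers, with overlapping groups and a log2 fold change of -0.24 ± 0.16 (SE, adjusted p = 0.276). With fast food it averaged 36.2 ± 7.06 CPM in antibiotic livers and 46.6 ± 8.31 CPM in control livers (SD, n = 4 each), and the log2 fold change was -0.36 ± 0.16 (SE, adjusted p = 0.154). Mrpl58, a peptidyl-tRNA hydrolase built into the large subunit that frees stalled ribosomes, averaged 16.8, 16.1, 17.7 and 17.7 CPM in the fast food antibiotic, chow antibiotic, fast food control and chow control livers. The S18 family has 3 members in mammalian mitochondria, Mrps18a, Mrps18b and Mrps18c, and their water effects with chow were 0.02, 0.07 and -0.22 on the log2 scale (adjusted p = 0.943, 0.716 and 0.238). Mrps12, related to the bacterial protein in which streptomycin resistance arises, had -0.19 (adjusted p = 0.401). Mrpl3, whose human counterpart is mutated in a cardiomyopathy, had 0.13 (adjusted p = 0.390).

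Other genes of mitochondrial translation were compared from fixed lists. With chow, where 13.2% of all genes tested were lower, antibiotic water lowered 5 of 15 translation factors, 33.3%, and raised none. Taco1, which is needed to translate the messenger of a cytochrome oxidase subunit, averaged 10.9 ± 1.26 CPM in the chow antibiotic livers and 18.2 ± 0.447 CPM in the chow control livers (SD, n = 4 each; log2 fold change -0.73, adjusted p = 0.00101). The initiation factors Mtif2 and Mtif3 had log2 fold changes of -0.56 and -1.19 (adjusted p = 0.00165 and 0.00372), and the elongation factor Tufm had -0.51 (adjusted p = 0.0260). Lrpprc, which stabilises mitochondrial messengers, was the fifth at -0.32 and is named after its value was seen. Of 24 genes for ribosome assembly and ribosomal RNA modification, 12.5% fell, a share near that of all genes: Mettl17, Mrm2 and Mterf4, by 1.01, 0.92 and 0.58 on the log2 scale; none rose. Among 16 aminoacyl-tRNA synthetases only Vars2 passed, at -1.09 (adjusted p = 0.000290), and among 14 genes for mitochondrial DNA transcription and upkeep only Tfam, its packaging and transcription factor, at -0.54 (adjusted p = 0.00335). Of 6 genes listed as ribosomal proteins under other names, Ptcd3 fell, by 0.31, and Dap3, a small-subunit GTPase, had 0.31 (adjusted p = 0.103). Of 17 import and chaperone genes, Timm17b fell, by 0.46. The single calls among the synthetases, the genes for mitochondrial DNA and the import genes make up 6.25, 7.14 and 5.88% of those lists, below the share of all genes. Leaving out 1 library ended the call of Mrm2 (chow control replicate 4), Ptcd3 (chow antibiotic replicate 2) and Timm17b (chow control replicate 3), while Mterf4 and Lrpprc passed in 10 and Tufm in 12 of 16 such fits.

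The same chow antibiotic libraries serve in the meal comparison with antibiotics, so its values are given side by side and not as separate evidence. There Taco1, Mtif2 and Mtif3 were higher with fast food, at 0.72, 0.44 and 0.89 on the log2 scale, as were Mettl17 at 0.85, Vars2 at 0.54, Polg at 0.36 and Ptcd3 at 0.34 (edgeR). Among the import genes Pam16 was higher at 0.94 and Tomm20 lower at -0.66, and among the regulators Ppara and Gabpb2 were higher at 1.57 and 0.45 and Myc lower at -2.13. Of the 80 cytosolic ribosomal protein genes, 39 were lower and none higher, while 5.87% of all genes tested were lower; among them were Rps14 at -0.67 and Rpl37a at -0.74. The respiratory chain genes Cox7a2l and Ndufa7 were lower too. Taco1, Tomm20, Ppara, Rps14, Rpl37a and Cox7a2l passed in all 16 fits without 1 library, Mettl17 in 15, Mtif2 in 14, Ptcd3 and Ndufa7 in 13, Mtif3 and Myc in 12, Gabpb2 in 10, Pam16 in 8 and Vars2 and Polg in 7. The interaction passed for Taco1 at 0.86 (adjusted p = 0.0189), Mtif2 at 0.57 (adjusted p = 0.0466) and Mettl17 at 1.10 (adjusted p = 0.0416); Taco1 passed in all 16 fits without 1 library, Mtif2 in 2 of them and Mettl17 in 3. It passed as well for Ppara at 1.45 (adjusted p = 0.0467), Rps14 at -0.68 (adjusted p = 0.0225), Cox7a2l at -0.64 (adjusted p = 0.0263) and Ndufa7 at -0.68 (adjusted p = 0.0384), which passed in 3, 13, 8 and 6 of the fits without 1 library. In all, the interaction was lower for 5 of 80 respiratory chain genes and 1 of 80 cytosolic ribosomal protein genes with edgeR, and for 9 and 13 of them with DESeq2. With fast food, antibiotic water changed 0 of the translation factors, assembly genes or synthetases with edgeR; at an unadjusted p under 0.05 these lists had 0, 1 and 2 genes, and DESeq2 called 0, 0 and 1. With control water the meal called 0 genes of any of these lists with edgeR, while DESeq2 called Clpx lower (adjusted p = 0.0197) and Hsd17b10 higher (adjusted p = 0.0409); at an unadjusted p under 0.05, edgeR had 18 respiratory chain genes higher and 2 lower.

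Regulators of mitochondrial genes went both ways. With chow, antibiotic water raised Myc by 2.24 ± 0.54, Ppargc1a, the coactivator PGC-1α, by 1.45 ± 0.37 and Crtc2 by 0.80 ± 0.24 on the log2 scale, and lowered Ppara, the fatty acid sensing receptor, by 1.59 ± 0.28 (SE; adjusted p = 0.00900, 0.0117, 0.0243 and 0.00107). Crtc2, named after its value was seen, passed in 13 of 16 fits without 1 library and the other 3 in all. Ppargc1a averaged 38.4 ± 21.8 CPM in the chow antibiotic livers and 14.2 ± 2.67 CPM in the chow control livers (SD, n = 4 each). With fast food Nrf1 was the 1 regulator called by edgeR, at 0.46 (adjusted p = 0.0479), with 19.8 ± 2.57 CPM in antibiotic livers and 14.4 ± 1.74 CPM in control livers; it lost the call in 13 of the 16 fits without 1 library, and no test of the difference between meals passed for it (adjusted p = 0.567). At an unadjusted p under 0.05, 5 of the 12 regulators were higher with fast food and antibiotics and none lower, and DESeq2 called 4 higher: Nrf1, Ppargc1a, Gabpb2 and Pprc1 (adjusted p = 0.0225, 0.0123, 0.0241 and 0.0178). Gabpa, Esrra, Polrmt, Ppargc1b and Pprc1 were not called by edgeR in any comparison.

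The ribosomal proteins of the cytosol took the other direction in the chow mice. Antibiotic water raised 29 of 80 cytosolic ribosomal protein genes, 36.2%, and lowered none, while 10.6% of all genes tested were higher and 13.2% lower. The median log2 fold change of the list was 0.36, against -0.13 for the 78 mitochondrial members. Rps20 averaged 71.1 ± 6.67 CPM in the chow antibiotic livers and 46.2 ± 5.22 CPM in the chow control livers (SD, n = 4 each; adjusted p = 0.00181), and Rps15a and Rpl10 rose too. Many cytosolic ribosomal protein genes have near-identical pseudogenes, so their counts are uncertain. Of 80 nuclear respiratory chain genes, 8 rose and 2 fell, with a median of 0.09; the share that rose was near that of all genes. Among them, Ndufa7 and Cox7a2l rose by 0.52 and 0.43. With fast food, antibiotic water changed none of the cytosolic ribosomal protein genes and 1 respiratory chain gene, Uqcr11, which passed in 8 of 16 fits without 1 library, and the medians were 0.01 and -0.18. These are calls of edgeR; DESeq2 called 0 of the cytosolic genes and 3 respiratory chain genes lower, and 71 of 80 respiratory chain genes had negative fold changes.

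**Figure D5:**
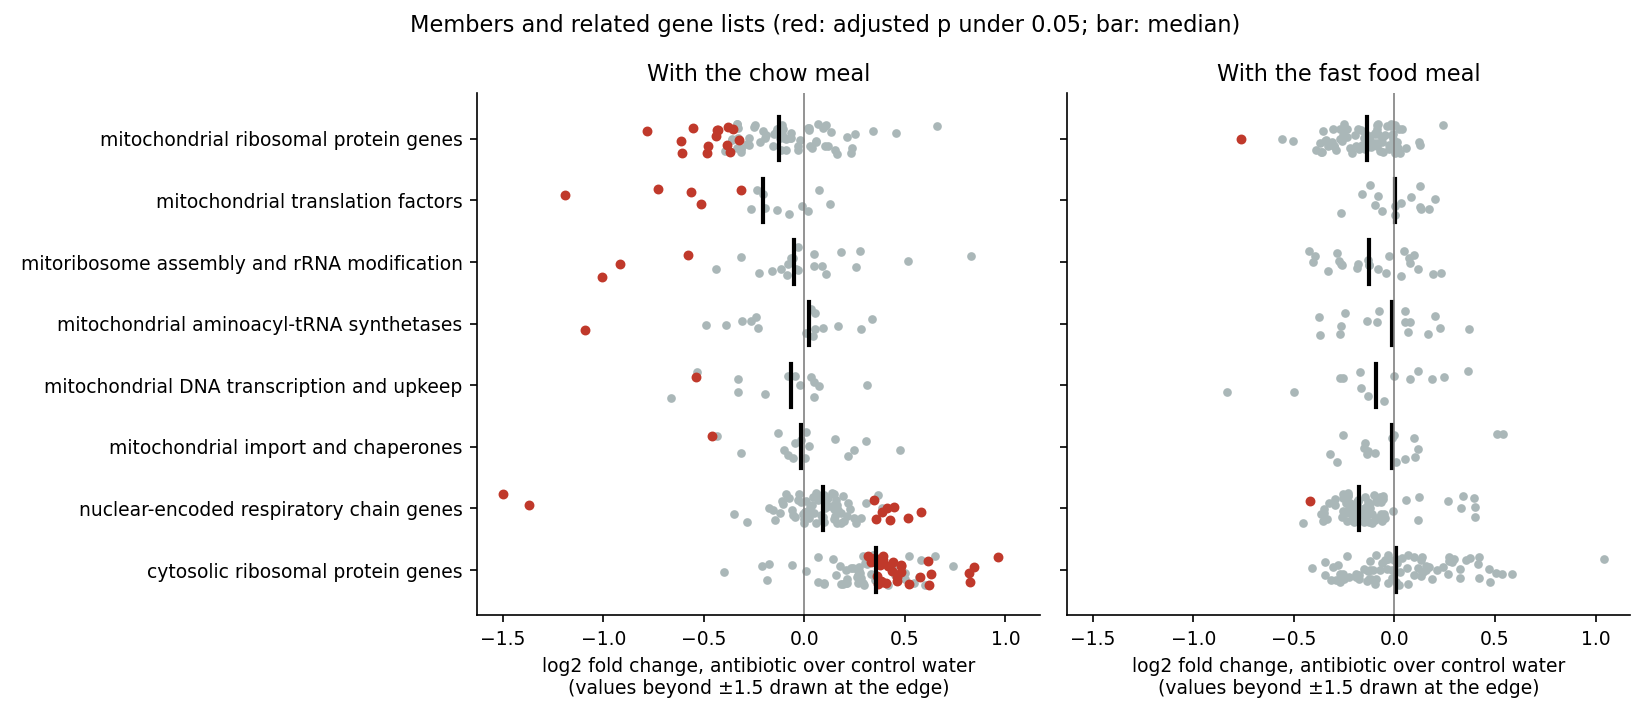
log2 fold change of antibiotic over control water for the 78 members and 7 related gene lists, with chow on the left and fast food on the right; each point is a gene, red where the adjusted p was under 0.05, and the bar is the median. With chow the medians are -0.13 for the members and 0.36 for the cytosolic ribosomal protein genes; with fast food they are -0.14 and 0.01.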

How the data were processed

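Liver RNA of 16 libraries, 4 in each of 4 groups of meal and water, was extracted with a QIAGEN kit, made into mRNA libraries with the Illumina TruSeq kit and sequenced as single reads, per the labels' protocols. The authors deposited 1 table of whole-number read counts by gene, not normalized. Per the submitters' processing notes, HTSeq, STAR, cutadapt and FastQC were used, with edgeR and DESeq2, on the build GRCm38.p6; no versions or roles are stated there. No source used here names the annotation release, the use of strand or how multiply matching reads were counted, so overlapping genes and near-identical copies are uncertain: 28 members share exon bases with a gene on the opposite strand and 8 with one on the same strand, in GENCODE M21. Of the 25006 identifiers 24991 were found in that annotation, which gave symbols and coordinates (1-based).

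From the counts, edgeR 4.0.16 in R 4.3.3 kept 13180 genes (filterByExpr, minimum count 10), scaled libraries by TMM and fitted 1 mean per group over all 16 libraries (robust quasi-likelihood, two-sided). P-values were adjusted by Benjamini and Hochberg's method across every gene tested, with calls at 0.05; each SE was taken from the fold change and its F statistic. CPM values of single genes and the summed levels of the members are TMM-scaled. Sums of cell type markers and the threshold of 1 CPM use the library total alone. DESeq2 1.42.0 was an alternative, beside other scaling, filters, a replicate block, terms for the share of ribosomal RNA reads and leaving out libraries. The code was tested on simulated data. No 2 libraries agreed within sampling noise: the smallest chi-square per degree of freedom within a group was 14.4.

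Members and gene lists were chosen with earlier results of these data known. Named members are those called with the lowest p (up to 6 per direction and comparison), the extremes in level and fold change, those nearest to 1 CPM and 8 of known role, with Lars2 kept out of the synthetases because ribosomal RNA reads are counted to it.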

Additional observations from a re-analysis of the deposited data

Results flagged for a closer look

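In 7 members, 1 library of a group of 4 lay far from the other 3 by Dixon's test at the 95% level; 116 groups were tested, and chance alone flags about 1 group in 20. Of these values 3 belong to members called lower by antibiotic water with chow and come from its antibiotic group. Mrpl37 had 19.88 CPM in chow antibiotic replicate 2, against 15.78 to 16.19 CPM in the others. Mrps7 had 46.51 CPM in chow antibiotic replicate 2, against 37.22 to 38.52 CPM. Mrps22 had 12.5 CPM in chow antibiotic replicate 4, against 18.72 to 19.62 CPM, and without that library its adjusted p was 0.124. Mrps15 had 15.22 CPM in fast food antibiotic replicate 1, against 12.71 to 13.02 CPM, and Mrps18c had 12.34 CPM in the same library, against 15.84 to 16.5 CPM. Mrpl58 had 20.28 CPM in fast food antibiotic replicate 4, against 15.15 to 16.02 CPM. Mrpl9 had 32.47 CPM in fast food control replicate 3, against 31.94 to 31.95 CPM, a gap that stands out because the others were so close together.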

How the results depend on the processing

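No called member changed sign under any setting run, but medians near 0 did, and so did that of the water with chow in the high-share libraries. Every setting reused libraries that made the calls, so a kept sign is no separate evidence. When 1 library was left out in turn, the members called numbered 0 to 0 for the meal with control water, 0 to 2 for the meal with antibiotics, 5 to 15 for the water with chow, 1 to 5 for the water with fast food and 0 to 1 for the interaction; the medians ran from -0.0613 to 0.0477, from -0.0819 to 0.0301, from -0.186 to -0.0705, from -0.194 to -0.0958 and from -0.0923 to 0.0227. Of the water effect with fast food, leaving out chow antibiotic replicate 4 gave 5 members, leaving out replicate 3 of the fast food antibiotic livers gave 3 and leaving out chow control replicate 3 gave 2. For the meal with antibiotics, 2 members passed with DESeq2, with the ribosomal RNA share as a covariate, with a split at 1%, without the 3 libraries high in acute phase transcripts and without fast food antibiotic replicate 2. For the water with chow the count of 14 became 9 without a filter on low counts, 7 with only the groups compared, 23 in low-share libraries (median -0.328) and 0 in high-share libraries (median 0.0464). These counts are given here without the share of all genes called in each fit. For the water with fast food the count of 1 became 6 with DESeq2, 2 with RLE factors, 3 with the replicate block, and 0 with the share as a covariate or a split. The interaction gave 2 with DESeq2 and 2 without those 3 libraries. The cause of these shifts was not tested, except that the 2-group and share subsets have fewer libraries. Same-numbered libraries of different groups did not in general deviate together (24 correlations between -0.222 and 0.359, 3 over 0.1). Their median was -0.00041, against 0.00798 for pairs of other numbers. Whether a number marks anything shared is not stated in the labels, and these correlations cannot settle it. With the replicate block the water with chow gave 10 called members. Over all genes, the meal with control water called 32 higher and 44 lower, against 169 and 136 with DESeq2, 206 and 159 with only the groups compared and 10 and 12 with the covariate.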

Other observations

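Some genes that share exon bases with members moved where the member itself did not pass. Slc5a3, a myo-inositol transporter whose gene lies within Mrps6, averaged 21.6 ± 4.73 CPM in the fast food antibiotic livers and 11.5 ± 1.09 CPM in the chow antibiotic livers (SD, n = 4 each), and its log2 fold change was 0.90 ± 0.17 (SE, adjusted p = 0.00554, edgeR). Mrps6 averaged 4.18 ± 0.967 CPM in the same fast food antibiotic livers and 3.49 ± 0.770 CPM in the chow antibiotic livers (adjusted p = 0.499, edgeR). Mapk8ip3, a scaffold protein of JNK signalling that overlaps Mrps34 on the other strand, averaged 27.6 ± 4.20 CPM in the fast food antibiotic livers and 16.8 ± 1.41 CPM in the fast food control livers, a log2 fold change of 0.71 ± 0.14 (SE, adjusted p = 0.0141, edgeR); for Mrps34 the log2 fold change was 0.00 ± 0.29. Both neighbours were picked after their values were seen.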
